A study of Homo sapiens with 6 samples.

Results

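The genes described here encode the kinases that phosphorylate serine- and arginine-rich (SR) splicing proteins and a pair of splicing activators of the same kind. They are CLK1, CLK2, CLK3, CLK4, SRPK1, SRPK2, TRA2A, TRA2B and DYRK1A. They were chosen by gene symbol, and all 9 were present among the 12793 rows of the deposited table. The cells were HCT15, a human line long established from a colorectal cancer. In 3 libraries, called sgRBM15 here, the label was an RBM15 knockout obtained by CRISPR/Cas9 editing, and in the other 3, called sgctrl, they carried a control guide and were labelled wild type. Both groups were the same line in the same culture medium. RBM15 binds RNA and guides the m6A methyltransferase complex, and the comparison asked what its loss inside tumour cells did to their transcripts. The labels do not say whether the edited cells were 1 clone or a pool, or where the guide cut.

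SR proteins bind exons and recruit the spliceosome, and their activity depends on phosphorylation of their serine-arginine repeats. SRPK1 and SRPK2 act mainly in the cytoplasm and add the phosphates that let SR proteins enter the nucleus. CLK1 to CLK4 act in the nucleus and phosphorylate them further, which releases them from nuclear speckles. TRA2A and TRA2B are SR-like proteins that bind purine-rich exonic enhancers. DYRK1A is a related kinase with nuclear substrates that include splicing factors and transcription regulators. Transcripts of several of these genes are themselves known to be regulated by poison exons or retained introns.

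The CLK kinases share a motif near the end of the kinase domain, called LAMMER after its amino acids. The 33 coding bases that begin with the codons for its EHL residues are shown for the 4 genes, because they show how far reads of these paralogs can be told apart. They were read from GENCODE 29 transcripts, each within 1 exon on GRCh38, and capitals mark bases that differ from CLK1.
CLK1, chr2:200854648-200854680 (minus strand): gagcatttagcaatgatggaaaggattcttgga
CLK2, chr1:155264253-155264285 (minus strand): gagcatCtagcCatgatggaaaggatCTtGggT
CLK3, chr15:74628619-74628651 (plus strand): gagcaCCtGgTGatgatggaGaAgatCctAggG
CLK4, chr5:178605335-178605367 (minus strand): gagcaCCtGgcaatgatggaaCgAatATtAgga
CLK2 differed from CLK1 at 6 of the 33 positions, CLK4 at 8 and CLK3 at 10. Over the longest open reading frames, CLK1 and CLK4 were the closest pair of the CLK family, with 77.7% identical aligned bases and a longest shared run of 34 bp. The other CLK pairs shared runs of at most 17 bp. The longest shared run was 23 bp between SRPK1 and SRPK2 and 14 bp between TRA2A and TRA2B. Reads were 150 bp long, per the labels' protocols. Outside the family, CLK2 aligned at 96.7% identity over 1140 bp with its processed pseudogene CLK2P1, which has no row in the table, so the reads assigned to CLK2 are uncertain to that extent.

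The promoter windows of CLK1, SRPK1 and CLK3 are shown because these genes had the lowest adjusted p among those that were higher in the sgRBM15 libraries. Each runs from 250 bases before to 50 bases after a RefSeq transcript start in GRCh38.p14, and capitals mark the motif matches. For CLK1 and CLK3, which have 2 windows each, 1 is shown.
CLK1, chr2:200864609-200864908 (minus strand): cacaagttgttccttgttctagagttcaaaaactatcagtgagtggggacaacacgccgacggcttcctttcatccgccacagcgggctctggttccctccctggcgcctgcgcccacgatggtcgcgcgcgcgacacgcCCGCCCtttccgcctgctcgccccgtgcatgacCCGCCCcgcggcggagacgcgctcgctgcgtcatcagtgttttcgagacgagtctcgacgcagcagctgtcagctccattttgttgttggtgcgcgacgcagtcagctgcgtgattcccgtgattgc
SRPK1, chr6:35921049-35921348 (minus strand): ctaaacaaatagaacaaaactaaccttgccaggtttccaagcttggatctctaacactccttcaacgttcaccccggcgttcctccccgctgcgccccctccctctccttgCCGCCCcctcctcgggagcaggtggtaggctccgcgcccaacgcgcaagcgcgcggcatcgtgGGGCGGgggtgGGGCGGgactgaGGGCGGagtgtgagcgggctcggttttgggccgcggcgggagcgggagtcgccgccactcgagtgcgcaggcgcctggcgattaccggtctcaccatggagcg
CLK3, chr15:74615586-74615885 (plus strand): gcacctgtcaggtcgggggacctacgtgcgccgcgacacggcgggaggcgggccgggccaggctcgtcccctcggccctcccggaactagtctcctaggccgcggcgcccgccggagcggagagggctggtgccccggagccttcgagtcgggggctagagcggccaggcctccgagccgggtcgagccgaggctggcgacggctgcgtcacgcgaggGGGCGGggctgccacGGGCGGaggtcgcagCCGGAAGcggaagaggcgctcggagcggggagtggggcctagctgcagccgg
The search covered both strands for 7 motifs, which were the CRE (TGACGTCA), the AP-1 site (TGANTCA), the heat shock element core (GAANNTTC), the E-box (CACGTG), the CCAAT box (CCAAT), the GC box (GGGCGG) and the ETS site (CCGGAAG). In the windows shown, CLK1 held 2 GC boxes, SRPK1 held 4, and CLK3 held 2 GC boxes and 1 ETS site. The CLK3 window that is not shown held CCAAT boxes and no GC box or ETS site. Of 35116 promoter windows of the same length, 45.0% held a GC box and 10.3% an ETS site. The table had 18 windows for 8 of the 9 genes, and 11 of the 18 held a GC box. These windows are not independent, since the 2 CLK1 windows overlap and hold the same 2 GC boxes. DYRK1A and SRPK2 have the most windows. The E-box was in 3 and the CCAAT box in 3 of the 18 windows, against 7.26% and 34.6% of all windows. The AP-1 site was in 1, against 7.71%, and the ETS site in 1. The CRE and the heat shock element core were in 0 of the 18 windows, against 1.85% and 6.77% of all windows. These letters are a description of the windows and not evidence of binding.

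Levels are FPKM, which correct fragment numbers for gene length and library size and so can be set side by side between genes. Columns summed to between 402288 and 409194 FPKM in sgRBM15 libraries and between 409748 and 415057 FPKM in sgctrl libraries. Every sgRBM15 sum was thus below every sgctrl sum. Read totals could not be recovered, and the depth behind each value is therefore unknown. RBM15 itself stood at 17.3, 18.5 and 18.0 FPKM in sgRBM15 libraries 1 to 3, against 5.97, 5.89 and 5.51 FPKM in sgctrl libraries 1 to 3. The targeted gene was thus higher in the libraries labelled knockout (1.48 on the log2 scale, SE 0.049, limma adjusted p = 3.88e-06). Its mRNA therefore does not check the label, and the cause of its higher level was not tested. Each direction below rests on the labels. Of 10 markers of colorectal epithelium, 7 were in the table and summed to between 3481 and 3621 FPKM in sgRBM15 libraries, against 3803 to 3896 FPKM in sgctrl libraries. KRT8 and KRT18 carried most of that sum, and the 7 did not move alike, with 1 called higher and 5 lower. The keratin gene KRT8 averaged 1391 ± 55.5 FPKM in sgRBM15 and 1292 ± 19.9 FPKM in sgctrl libraries (SD, n = 3 each; log2 difference 0.11, limma adjusted p = 0.0307). The intestinal transcription factor gene CDX2 averaged 9.52 ± 0.254 FPKM in sgRBM15 and 20.9 ± 0.138 FPKM in sgctrl libraries (-1.06, limma adjusted p = 5.98e-06). The villin gene VIL1 averaged 3.87 ± 0.222 FPKM in sgRBM15 and 17.0 ± 0.168 FPKM in sgctrl libraries (-1.89, limma adjusted p = 2.16e-06). EPCAM, KRT18 and KRT19 were also lower and CDH1 did not pass, while KRT20, CDX1 and LGR5 were not analysed here. The part of these marker differences in the results below was not tested. Of the fibroblast markers 1 of 6 was listed (0.835 to 1.41 FPKM in sgRBM15, 0.917 to 1.41 FPKM in sgctrl), and of the endothelial markers 0 of 4. Of the immune markers 2 of 6 were listed (CD68 and CD14, summing to 9.88 to 12.2 FPKM in sgRBM15 and 6.26 to 6.77 FPKM in sgctrl). CD68 averaged 6.68 ± 0.632 FPKM in sgRBM15 and 2.91 ± 0.216 FPKM in sgctrl libraries (log2 difference 0.97, limma adjusted p = 0.000116). CD14 did not pass (limma adjusted p = 0.247), and the cause of the CD68 difference was not tested. Separate cultures behind the libraries of a group are not stated, and p-values therefore reflect the spread among these libraries alone, which may be technical.

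TRA2B was the most abundant of the 9 genes in both groups, followed by TRA2A and SRPK1. In sgRBM15 libraries CLK1, CLK3, CLK2 and SRPK2 came next, and DYRK1A and CLK4 were lowest. In sgctrl libraries CLK3, CLK1 and CLK2 came next, then SRPK2, CLK4 and DYRK1A. Neighbours whose 3 values overlapped were DYRK1A and CLK4 in sgRBM15 libraries, and CLK3 with CLK1, CLK1 with CLK2, and CLK4 with DYRK1A in sgctrl libraries. All other neighbours were separated in their own group. The order of CLK1 and CLK3 therefore differed between the groups, but in sgctrl their values overlapped.

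**Figure D1:**
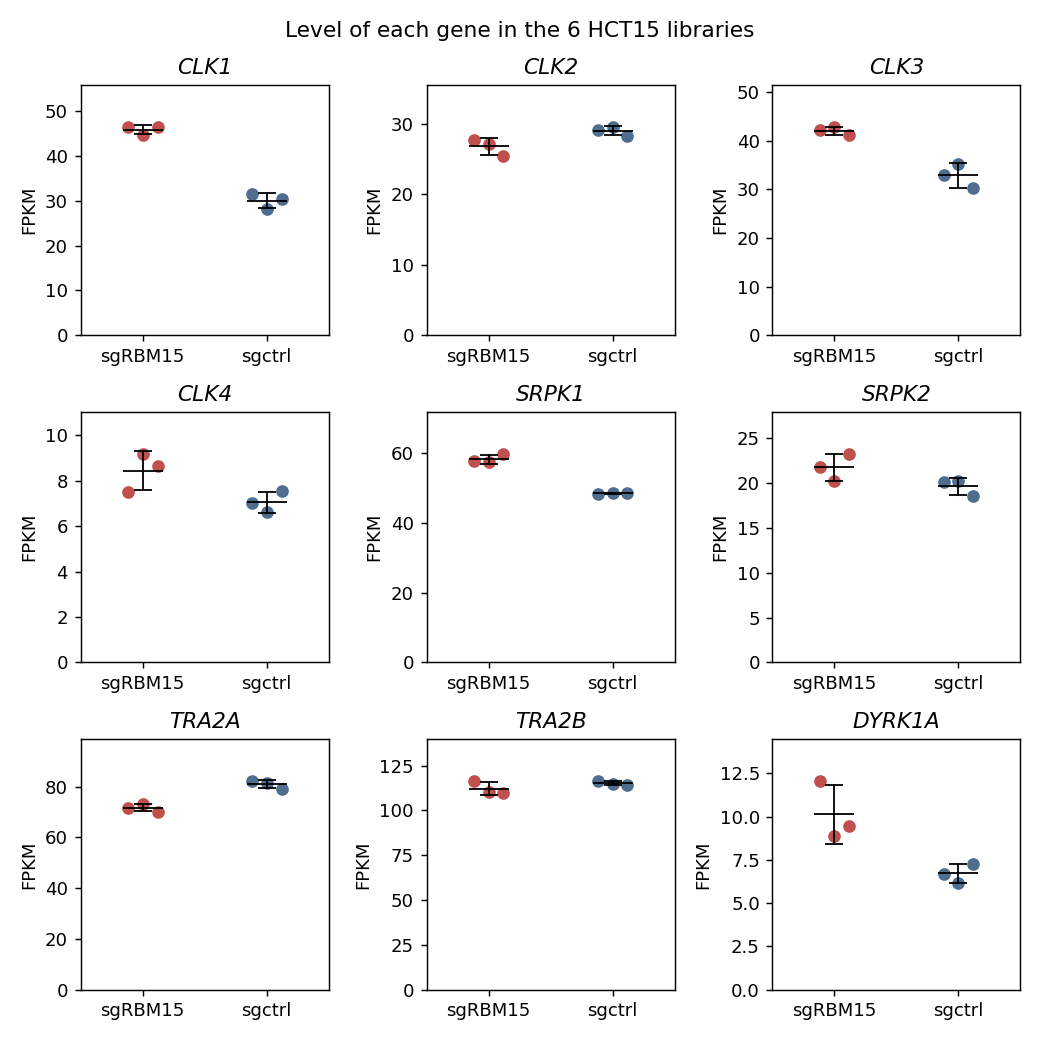
Level in FPKM (vertical axis, from 0) of each of the 9 genes in the 3 sgRBM15 libraries (red) and the 3 sgctrl libraries (blue). Bars give the mean and SD; CLK1, CLK3, SRPK1 and DYRK1A lie higher in every sgRBM15 library than in any sgctrl library, and CLK2 and TRA2A lie lower.

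Of the 9 genes, 6 passed the test at a threshold of 0.05, 5 of them higher and 1 lower in sgRBM15 libraries. The test was limma on log2(FPKM + 1), with Benjamini-Hochberg adjustment across the 11451 genes that averaged 1 FPKM or more. Over all of these genes 54.5% were called, 25.3% higher and 29.2% lower, so 6 called of 9 is near the background. All 9 passed the filter on low values. The sgRBM15 and sgctrl values did not overlap for 6 of the 9, against 63% of all tested genes. The median log2 difference of the 9 was 0.23, against -0.018 over all tested genes. The exact 2-sided permutation test over the 20 assignments of the libraries cannot give a p below 0.1.

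CLK1, which phosphorylates SR proteins in the nucleus and autoregulates its own splicing, rose the most of the 9. It stood at 46.5, 44.6 and 46.5 FPKM in sgRBM15 libraries 1 to 3, against 31.4, 28.1 and 30.5 FPKM in sgctrl libraries 1 to 3. Every sgRBM15 library was above every sgctrl library, and the gap between the groups was larger than the spread within either. The means were 45.9 ± 1.1 FPKM and 30.01 ± 1.69 FPKM (SD, n = 3 each), 1.53 times as high. On the log2 scale CLK1 differed by 0.60 (SE 0.047, limma adjusted p = 9.76e-05; exact permutation p = 0.1). Of all tested genes, 9.12% had a larger absolute difference. CLK1 (ENSG00000013441) lies on the minus strand of chromosome 2 at 200853009 to 200864744 in GRCh38. GENCODE 29 lists 15 transcripts for it, of which 4 are protein-coding, 2 are nonsense-mediated decay transcripts and 8 retain an intron. The deposited row gives 1 value for the gene, so the forms behind the rise were not analysed here.

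CLK3 rose as well, by 0.35 on the log2 scale (SE 0.056, limma adjusted p = 0.00186; exact permutation p = 0.1). It stood at 42.1, 42.9 and 41.2 FPKM in sgRBM15 libraries 1 to 3, against 33.0, 35.3 and 30.3 FPKM in sgctrl libraries 1 to 3. The sgRBM15 values lay close together and above all sgctrl values, which were spread more widely. CLK3 (ENSG00000179335) is on chromosome 15, plus strand, at 74598500 to 74645414. Its exons overlap those of EDC3, an mRNA decapping factor gene on the opposite strand, over 701 bp, and the sources used here do not say whether counting used strand. EDC3, looked up after the values of CLK3 were seen, averaged 21.7 ± 1.45 FPKM in sgRBM15 and 18.7 ± 0.654 FPKM in sgctrl libraries (SD, n = 3 each; limma adjusted p = 0.0194). Its part in the CLK3 value was not tested.

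CLK4, the closest paralog of CLK1, was called higher, with a call that depended on single libraries. It stood at 7.50, 9.17 and 8.63 FPKM in sgRBM15 libraries 1 to 3, against 7.00, 6.60 and 7.53 FPKM in sgctrl libraries 1 to 3. The groups overlapped, since sgRBM15 library 1 lay just under sgctrl library 3. CLK4 differed by 0.23 on the log2 scale (SE 0.081; limma adjusted p = 0.0471; exact permutation p = 0.2). The call was lost without sgRBM15 library 2 (0.17, limma adjusted p = 0.133), sgRBM15 library 3 (0.21, 0.116), sgctrl library 1 (0.22, 0.103) or sgctrl library 2 (0.19, 0.134). It was also lost with no filter on low values (limma adjusted p = 0.0533), no variance trend (0.0505), a replicate block (0.0677) or a GC and length trend removed (0.0722). CLK4 (ENSG00000113240) lies on the minus strand of chromosome 5 at 178602664 to 178630615.

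CLK2, another nuclear SR protein kinase, was not called. It stood at 27.7, 27.2 and 25.4 FPKM in sgRBM15 libraries 1 to 3, against 29.1, 29.6 and 28.3 FPKM in sgctrl libraries 1 to 3. All sgRBM15 values lay below all sgctrl values, by a small margin. The log2 difference of -0.11 (SE 0.043) did not pass after adjustment (limma adjusted p = 0.0652; exact permutation p = 0.1), and its unadjusted 95% interval ran from -0.21 to -0.0087. With a GC and length trend removed it was -0.020. CLK2 (ENSG00000176444) lies on the minus strand of chromosome 1 at 155262868 to 155278491, and 55.6% of its exonic bases are G or C, the highest share of the 9 genes. CLK4 has the lowest, at 37.0%.

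The 4 CLK genes together summed to 123.8, 123.8 and 121.8 FPKM in sgRBM15 libraries 1 to 3, against 100.5, 99.6 and 96.6 FPKM in sgctrl libraries 1 to 3. CLK1 made up 37.2% ± 1.11 of that sum in sgRBM15 libraries and 30.4% ± 1.83 in sgctrl libraries (SD, n = 3 each). CLK2 made up 21.8% ± 0.776 in sgRBM15 and 29.3% ± 0.361 in sgctrl libraries. The share of CLK3 was 34.2% in sgRBM15 and 33.2% in sgctrl libraries, and that of CLK4 was 6.85% in sgRBM15 and 7.13% in sgctrl libraries. The share of CLK1 was higher, and that of CLK2 lower, in each sgRBM15 library than in any sgctrl library; no test was made on these shares.

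SRPK1, the cytoplasmic kinase of SR proteins with the higher level of the pair, rose by 0.26 on the log2 scale. It stood at 57.7, 57.4 and 59.8 FPKM in sgRBM15 libraries 1 to 3, against 48.4, 48.5 and 48.7 FPKM in sgctrl libraries 1 to 3. The groups were well apart, and the sgctrl values lay between 48.4 and 48.7 FPKM. The means were 58.3 ± 1.35 FPKM in sgRBM15 and 48.6 ± 0.143 FPKM in sgctrl libraries (SD, n = 3 each; SE of the log2 difference 0.030, limma adjusted p = 0.00049; exact permutation p = 0.1). SRPK1 (ENSG00000096063) lies on the minus strand of chromosome 6 at 35832966 to 35921342, and LHFPL5, on the opposite strand, overlaps its exons over 265 bp. LHFPL5, looked up after the values of SRPK1 were seen, averaged 4.79 ± 0.64 FPKM in sgRBM15 and 3.05 ± 0.272 FPKM in sgctrl libraries (SD, n = 3 each; limma adjusted p = 0.00389), and its part in the SRPK1 value was not tested.

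SRPK2, the paralog of SRPK1, stood at 21.7, 20.2 and 23.2 FPKM in sgRBM15 libraries 1 to 3, against 20.06, 20.2 and 18.5 FPKM in sgctrl libraries 1 to 3. The groups overlapped, because sgRBM15 library 2 lay at the level of the sgctrl libraries. The log2 difference of 0.14 (SE 0.061, unadjusted 95% interval -0.0043 to 0.28) did not pass (limma adjusted p = 0.0908; exact permutation p = 0.2). Without sgRBM15 library 2 it was 0.19 and passed (limma adjusted p = 0.0371), and with median centring it was 0.17 and passed (0.0457). SRPK2 (ENSG00000135250) lies on the minus strand of chromosome 7 at 105110704 to 105399308. SRPK3, another family member, was below the filter, at 0.455 ± 0.206 FPKM in sgRBM15 and 0.376 ± 0.104 FPKM in sgctrl libraries (SD, n = 3 each).

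TRA2A, a splicing activator, was the 1 gene of the 9 that was called lower. It stood at 71.7, 73.0 and 70.2 FPKM in sgRBM15 libraries 1 to 3, against 82.2, 81.3 and 79.2 FPKM in sgctrl libraries 1 to 3. All sgRBM15 libraries lay below all sgctrl libraries. On the log2 scale TRA2A differed by -0.17 (SE 0.031; limma adjusted p = 0.00287; exact permutation p = 0.1), and 56.7% of all tested genes had a larger absolute difference. TRA2A (ENSG00000164548) lies on the minus strand of chromosome 7 at 23504780 to 23532041.

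TRA2B, its paralog, stood at 116.4, 110.1 and 109.8 FPKM in sgRBM15 libraries 1 to 3, against 116.3, 115.0 and 114.0 FPKM in sgctrl libraries 1 to 3. The groups overlapped, since sgRBM15 library 1 was the highest of all 6. The log2 difference was -0.038 (SE 0.032, unadjusted 95% interval -0.11 to 0.038) and did not pass (limma adjusted p = 0.349; exact permutation p = 0.4). It passed in 1 alternative, with a GC and length trend removed (-0.098, limma adjusted p = 0.048). On the TPM scale it was -0.014 (limma adjusted p = 0.731), and with median centring -0.010 (0.815). TRA2B (ENSG00000136527) lies on the minus strand of chromosome 3 at 185915906 to 185938136.

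DYRK1A, a dosage-sensitive kinase of the chromosome 21 region linked to Down syndrome, rose by 0.52 on the log2 scale (SE 0.11, limma adjusted p = 0.00658; exact permutation p = 0.1). It stood at 12.1, 8.89 and 9.46 FPKM in sgRBM15 libraries 1 to 3, against 6.69, 6.19 and 7.29 FPKM in sgctrl libraries 1 to 3. All sgRBM15 values lay above all sgctrl values, and sgRBM15 library 1 was well above the other two. Without that library the difference was 0.40 and still passed (limma adjusted p = 0.00787). DYRK1A (ENSG00000157540) is on chromosome 21, plus strand, at 37365573 to 37526358, and its transcripts hold stretches of at least 100 bp that align at 95% identity or more with other genes.

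**Figure D2:**
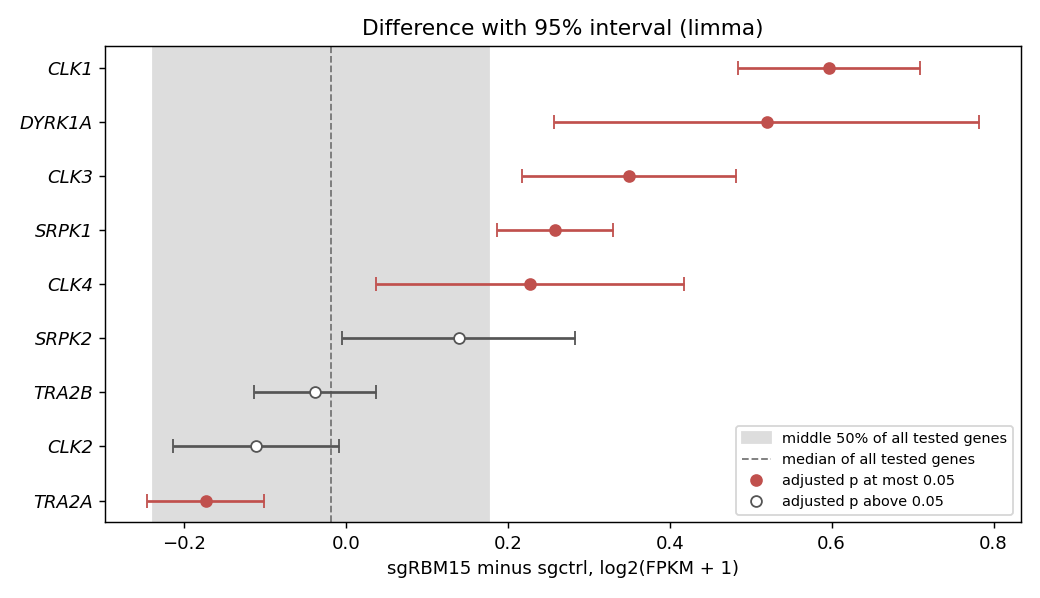
Log2 difference on the log2(FPKM + 1) scale, sgRBM15 minus sgctrl (horizontal axis), with unadjusted 95% intervals from limma; filled points passed an adjusted p of 0.05. The grey band is the middle 50% of all tested genes, from -0.24 to 0.18, and CLK1, DYRK1A, CLK3, SRPK1 and CLK4 lie above it.

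Whether closely related genes differed in their response was tested on the log2 ratio of (FPKM + 1) within each library, for 4 pairs, with exact 2-sided permutation tests whose smallest p is 0.1. CLK2 lay further below CLK3 in sgRBM15 libraries (log2 ratios -0.58, -0.64 and -0.67) than in sgctrl libraries (-0.17, -0.25 and -0.096). That difference was -0.46 with groups that did not overlap (exact permutation p = 0.1, 0.133 adjusted over the 4 pairs). CLK1 stood further above CLK4 in sgRBM15 libraries (2.48, 2.16 and 2.30) than in sgctrl libraries (2.02, 1.94 and 1.88), a difference of 0.37 without overlap (exact permutation p = 0.1, 0.133 adjusted). The TRA2A to TRA2B ratio differed by -0.14, again without overlap (exact permutation p = 0.1, 0.133 adjusted). The SRPK1 to SRPK2 ratio differed by 0.12 with overlapping groups (exact permutation p = 0.2, also after adjustment). With 3 libraries a group none of these tests could pass a threshold of 0.05.

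**Figure D3:**
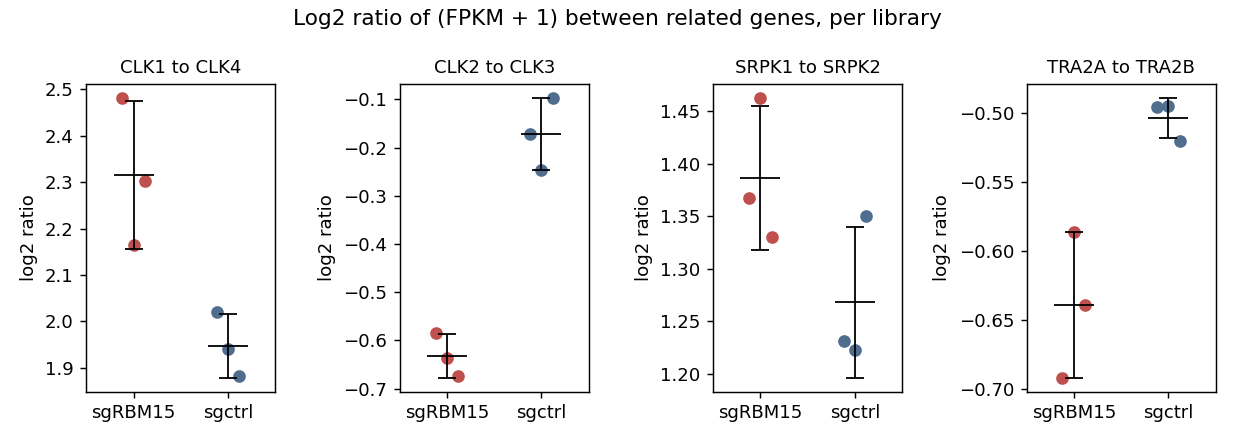
Log2 ratio of (FPKM + 1) between 2 related genes (vertical axis, not from 0) in each sgRBM15 library (red) and sgctrl library (blue), with mean and SD. The groups are apart for CLK1 to CLK4, CLK2 to CLK3 and TRA2A to TRA2B, and overlap for SRPK1 to SRPK2.

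Other kinases of the same broad family (CMGC), including further DYRK kinases and those that act on splicing or on RNA polymerase II, had 4 of 10 tested genes higher and 0 lower in sgRBM15 libraries. Over all tested genes 25.3% were higher and 29.2% lower. The 4 called of 10 are near the 54.5% of all genes, and the alternatives gave 3 to 6 called kinases of this list. Their median log2 difference was 0.10. CDK12, which phosphorylates the tail of RNA polymerase II, averaged 22.4 ± 1.52 FPKM in sgRBM15 and 15.0 ± 0.356 FPKM in sgctrl libraries (SD, n = 3 each; log2 difference 0.55, limma adjusted p = 0.000238). PRPF4B, a kinase of the spliceosome, averaged 25.6 ± 0.622 FPKM in sgRBM15 and 18.6 ± 0.594 FPKM in sgctrl libraries (0.44, limma adjusted p = 0.000162). HIPK1 rose by 0.27 and HIPK3 by 0.21 on the log2 scale. HIPK3 no longer passed without sgRBM15 library 1 (limma adjusted p = 0.0542), sgRBM15 library 3 (0.0742), sgctrl library 2 (0.0669) or sgctrl library 3 (0.0896). Nor did it pass with a replicate block (limma adjusted p = 0.0658).

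Phosphatases that oppose these kinases and the factor that imports SR proteins had 4 of 9 genes higher and 0 lower, against 25.3% higher and 29.2% lower of all tested genes. Their median log2 difference was 0.19. The 4 called of 9 are near the 54.5% called over all tested genes, and the alternatives gave 3 to 6 called. PPM1G, a nuclear phosphatase found with the spliceosome, averaged 155 ± 2.57 FPKM in sgRBM15 and 117 ± 2.17 FPKM in sgctrl libraries (SD, n = 3 each; log2 difference 0.41, limma adjusted p = 5.53e-05). TNPO3, which carries phosphorylated SR proteins into the nucleus, averaged 32.4 ± 1.41 FPKM in sgRBM15 and 27.6 ± 1.01 FPKM in sgctrl libraries (0.22, limma adjusted p = 0.00582). PPP1CC, a catalytic subunit of protein phosphatase 1, rose by 0.20 and PPP2CB, a catalytic subunit of protein phosphatase 2A, by 0.19. The call of PPP2CB was lost without sgctrl library 2 (limma adjusted p = 0.0519).

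The SR proteins, which are the substrates of these kinases, had 1 gene higher and 5 lower of 11 tested, with a median log2 difference of -0.029. The 6 called of 11 are the same share as the 54.5% called over all tested genes. SRSF1, an SR protein phosphorylated by SRPK1 and CLK1, stood at 148, 145 and 139.8 FPKM in sgRBM15 libraries 1 to 3, against 89.6, 85.1 and 68.2 FPKM in sgctrl libraries 1 to 3. All sgRBM15 values lay far above all sgctrl values (log2 difference 0.84, SE 0.095, limma adjusted p = 0.00042). SRSF6 averaged 62.5 ± 2.11 FPKM in sgRBM15 and 87.1 ± 5.85 FPKM in sgctrl libraries (SD, n = 3 each; -0.47, limma adjusted p = 0.000388). SRSF7 fell by 0.33 and SRSF5 by 0.28 on the log2 scale. SRSF12 was not analysed here.

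Of 22 further proteins with serine-arginine repeats, 12 genes were higher and 5 lower, against 25.3% higher and 29.2% lower of all tested genes, with a median log2 difference of 0.13. SON, a scaffold of nuclear speckles, averaged 77.5 ± 1.93 FPKM in sgRBM15 and 56.8 ± 0.64 FPKM in sgctrl libraries (SD, n = 3 each; log2 difference 0.44, limma adjusted p = 5.93e-05). SRRM1, a splicing coactivator, rose by 0.34, SREK1 by 0.31 and PNN, a speckle and exon junction protein, by 0.30. The call of SREK1 was lost without sgRBM15 library 1 (limma adjusted p = 0.0556) or 2 (0.0573) and with a GC and length trend removed (0.062). The count depended on single libraries, since 17 genes passed with all 6 libraries, 9 without sgRBM15 library 1 and 11 without sgctrl library 2.

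DCAF7, a binding partner of DYRK1A, and the DREAM complex, which DYRK1A assembles by phosphorylating LIN52, gave 4 genes higher and 3 lower of 12, with a median log2 difference of 0.15. The 7 called of 12 are near the 54.5% called over all tested genes. TFDP2, an E2F partner, stood at 9.47, 8.09 and 7.55 FPKM in sgRBM15 libraries 1 to 3, against 15.7, 20.1 and 13.5 FPKM in sgctrl libraries 1 to 3. The groups did not overlap (log2 difference -0.88, SE 0.14, limma adjusted p = 0.00187). Its relative TFDP1 rose by 0.33, as did LIN54, a DNA-binding subunit, by 0.55, while RBL2, a pocket protein of the complex, fell by 0.45. LIN52 itself, outside the rule for named genes, averaged 5.60 ± 0.589 FPKM in sgRBM15 and 5.01 ± 0.981 FPKM in sgctrl libraries (SD, n = 3 each) and did not pass (limma adjusted p = 0.371).

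**Figure D4:**
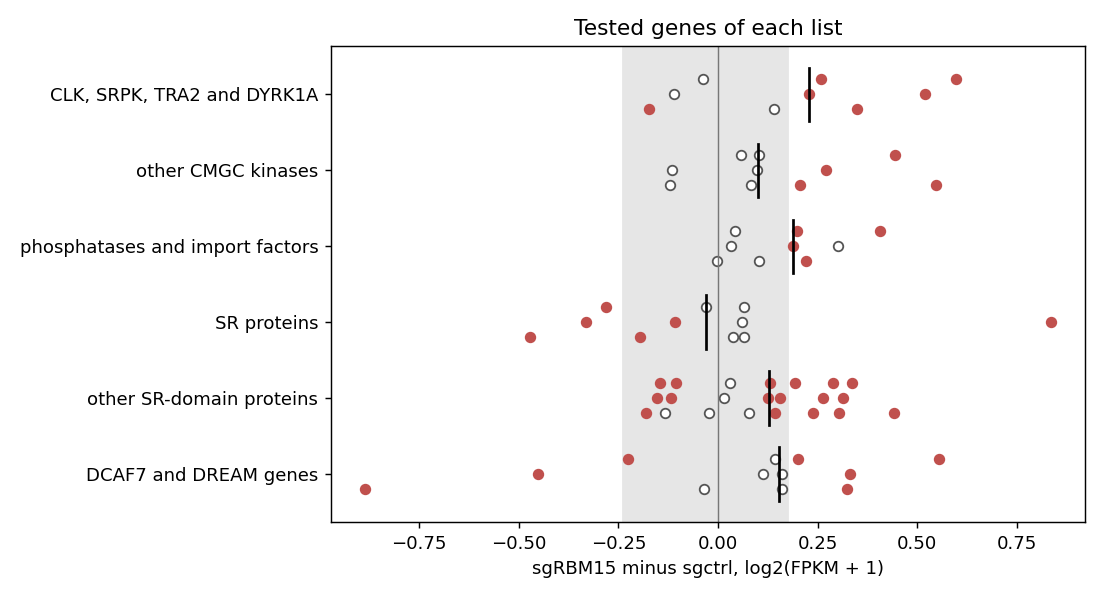
Log2 difference on the log2(FPKM + 1) scale, sgRBM15 minus sgctrl (horizontal axis), of each tested gene in 6 lists; filled points passed an adjusted p of 0.05, black lines are list medians and the grey band is the middle 50% of all tested genes. SRSF1 is the rightmost point, at 0.84, and TFDP2 the leftmost, at -0.88.

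The genes whose pattern over the 6 libraries was most like that of CLK1, out of 11085 others with a symbol, were POLQ, TNFAIP1, BYSL, NAA15 and AHCTF1. Likeness was the Euclidean distance between log2(FPKM + 1) values, each taken from the mean of its gene, and it ran from 0.069 for POLQ to 0.094 for AHCTF1. POLQ, a DNA repair polymerase gene, averaged 10.2 ± 0.472 FPKM in sgRBM15 and 6.51 ± 0.366 FPKM in sgctrl libraries (SD, n = 3 each). With 2 groups this distance is set mainly by the difference between them. In bulk RNA, fewer cells that express a gene and less RNA per cell cannot be told apart.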

How the data were processed

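RNA-seq of 6 HCT15 libraries, 3 sgRBM15 and 3 sgctrl, was deposited as 1 table. The authors deposited FPKM, scaled by transcript length and mapped total, per the file headers. HISAT2 2.2.1, StringTie 2.0.4 and hg38 were used, per the submitters' processing notes; the sources used here do not state settings, annotation, strand use or the filter on rows. Where 2 libraries both lay below 0.5 FPKM, at most 0.93% of their ratios shared a window 0.1% wide; no whole reads could be recovered, and depth is unknown.

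limma 3.58.1 in R 4.3.3 was fitted on log2(FPKM + 1) for 11451 rows with a mean of at least 1 FPKM, with a variance trend and no covariates; p-values were 2-sided and Benjamini-Hochberg adjusted. Differences on this scale understate changes of low genes. The fit was tested on simulated data with errors independent between libraries, so it does not cover effects shared by libraries. It called 49 of 50 genes changed 1.25-fold and 9 of 11251 unchanged genes. Exact permutation tests used 20 assignments. Same-numbered libraries deviated from their group means with correlations of -0.035, -0.037 and 4.54e-05, so numbers did not pair them. GENCODE 29 gave positions and exonic GC and length for 99.4% of Ensembl rows; similarity used blastn 2.17.0 and Biopython 1.88. Promoters are from RefSeq (GRCh38.p14), matched by symbol; TRA2A had no entry. The members and lists were chosen with earlier results of these data known. Named genes were all 9 members, RBM15, up to 4 called genes with the largest difference per list, and the 5 genes most like the member with the largest difference. Alternatives were another pseudocount (0.1), no filter or a filter at 5 FPKM, quantile normalization, median centring, the TPM scale, a replicate block, no variance trend, removal of a GC and length trend, and leaving out each library.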

Additional observations from a re-analysis of the deposited data

How the results depend on the processing

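Over 15 alternatives 0 of the 9 genes changed direction. CLK1, CLK3, SRPK1, TRA2A and DYRK1A kept their calls in all 15, with log2 differences of 0.55 to 0.63, 0.29 to 0.40, 0.24 to 0.29, -0.19 to -0.15 and 0.40 to 0.60. CLK4 lost its call in 8, SRPK2 gained one in 2 and TRA2B in 1; the cause was not tested. Called members numbered 5 to 7 over all alternatives. With a replicate block 5782 genes were called, 5 of the members, 3 CMGC kinases and 15 SR-domain genes, and CLK4 (adjusted p = 0.0677) and HIPK3 (0.0658) lost their calls; libraries did not correlate best with their own number. When 1 library was left out, 5451 to 5646 genes, 5 to 6 members and 9 to 15 SR-domain genes were called. Leaving out libraries gave ratio differences of 0.29 to 0.44 for CLK1 to CLK4, -0.50 to -0.42 for CLK2 to CLK3, 0.081 to 0.16 for SRPK1 to SRPK2 and -0.16 to -0.11 for TRA2A to TRA2B. Among 26 other named genes, 3 lost a call in some alternative and 0 reversed. With the settings of the report 2896 genes were higher and 3349 lower; more were higher than lower with a GC and length trend removed (3480 and 2849), quantile normalization (3367 and 2894), median centring (3239 and 3044) and the TPM scale (3144 and 3093). Unknown depth limits what can be said of low genes.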

Other observations

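A few related kinases fell below the filter of 1 FPKM and were not tested with the settings of the report. With no filter on low values 13 other CMGC kinases were tested, 5 of them called higher and 0 lower. DYRK3, a kinase that dissolves stress granules and speckles, was listed at 1.30, 1.23 and 1.22 FPKM in sgRBM15 libraries 1 to 3, against 0.615, 0.659 and 0.704 FPKM in sgctrl libraries 1 to 3, and the groups did not overlap. The same held for 63% of all tested genes. DYRK1B, the closest relative of DYRK1A, was listed at 0.803, 0.553 and 0.625 FPKM in sgRBM15 libraries and at 0.753, 0.704 and 0.715 FPKM in sgctrl libraries, and the groups overlapped. Their depth is unknown.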
